A study of Homo sapiens with 6 samples.

Results

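The SON peaks of IMR90 cells after 6 days of ICM were set against those after 3 days. IMR90 is an established line of human fibroblasts, which the labels describe as embryonic and from lung. ICM is the agent as the labels write it, with no dose given, and the labels do not expand the name. All cells were of this 1 line with no genetic change stated, and for SON all cells were fixed with formaldehyde alone. The labels of the 2 treated groups differ only in days of ICM, and other differences between the groups are not known. The comparison took 11028 peaks of the 3-day list and 5481 peaks of the 6-day list on chromosomes 1 to 22 and X, of 44717 peaks in the 4 lists analysed here. The other lists are SON in untreated cells (22216 peaks) and HMGB2 in untreated cells (5992 peaks), which were fixed with EGS before formaldehyde, and they are used only as a reference. A 3-day peak was called kept when a 6-day peak overlapped it by at least 1 bp and lost otherwise, and a 6-day peak with no 3-day peak was called gained.

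SON is a large RNA-binding protein that forms the core of nuclear speckles, bodies rich in splicing factors that lie beside actively transcribed, gene-dense chromatin. It helps SR proteins, the serine and arginine-rich splicing regulators, to act on weakly spliced transcripts, among them those of cell division genes. ChIPmentation fixes protein to DNA, pulls the protein down with an antibody and inserts sequencing adapters with a transposase, so that peaks mark DNA held near the protein. The series set out to relate SON, HMGB2 and the architectural factor CTCF to genome folding and gene expression.

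There is 1 list per time point, made from 2 replicates, so no test between the times was possible and all values are descriptions. The strength of a peak is the −log10 of the authors' p-value, taken in the deposited lists as the lower of the replicate values, and it was ranked only within its list. The read depth is unknown. A p-value per peak moves with depth, so a peak missing from the shorter list may be a peak under its limit. Median strength was 9.06 at 3 days and 8.50 at 6 days. The global IDR, which estimates how irreproducible a peak is between replicates, was at most 0.05 in 4571 of the 3-day peaks and in 822 of the 6-day peaks. Replicate values correlated across peaks with a Spearman rho of 0.779 at 3 days and 0.564 at 6 days. The 2 replicate values were exactly equal in 28.9% of peaks at 3 days, 9.47% at 6 days and 56.0% in untreated cells. How equal values arose is not known. They enter rho, and a value given below as the same in both replicates is not read as agreement between replicates. Where a peak is missing, fewer cells with the site bound and less binding per cell cannot be told apart. Intervals of shares are 95% exact (Clopper-Pearson) and cover counting error only.

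The sequences shown for kept and lost peaks are stretches just before the transcription starts of genes at the top of each group or of a gene class. They are RefSeq sequences of GRCh38.p14, 150 bases ending at the base before the start, written 5′ to 3′ on the gene's strand. Capitals mark matches on either strand to a GC box, spelled GGGCGG, to the CCAAT box that its name spells, to an ETS site, spelled CCGGAAG, or to the core of the CTCF site. The first 4 belong to genes whose 3-day peak was kept: PHF12, a PHD finger protein of a corepressor complex (chr17:28951519-28951668, minus strand), FAF2, a factor of protein degradation at the endoplasmic reticulum (chr5:176448235-176448384, plus strand), U2AF2, which binds the polypyrimidine tract at 3′ splice sites (chr19:55654885-55655034, plus strand), and HNRNPH1, an hnRNP splicing regulator (chr5:179623402-179623551, minus strand).
PHF12: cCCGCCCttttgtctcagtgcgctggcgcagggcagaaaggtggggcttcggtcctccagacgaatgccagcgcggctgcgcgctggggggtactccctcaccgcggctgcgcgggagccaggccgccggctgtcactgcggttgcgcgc
FAF2: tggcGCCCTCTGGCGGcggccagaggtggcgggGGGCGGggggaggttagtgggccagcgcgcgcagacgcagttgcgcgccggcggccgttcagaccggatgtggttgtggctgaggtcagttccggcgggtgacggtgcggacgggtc
U2AF2: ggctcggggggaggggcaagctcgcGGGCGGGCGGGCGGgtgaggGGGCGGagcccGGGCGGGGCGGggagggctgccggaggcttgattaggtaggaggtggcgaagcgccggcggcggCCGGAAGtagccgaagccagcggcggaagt
HNRNPH1: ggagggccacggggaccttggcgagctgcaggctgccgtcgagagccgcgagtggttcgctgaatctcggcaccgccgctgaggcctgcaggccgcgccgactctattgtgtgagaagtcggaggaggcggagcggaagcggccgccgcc

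The other 4 belong to genes whose 3-day peak was lost: CNOT9, a subunit of the CCR4-NOT deadenylase (chr2:218568689-218568838, plus strand), MORF4L1, a chromatin reader of histone acetyltransferase complexes (chr15:78872740-78872889, plus strand), CDK1, the kinase that drives entry into mitosis (chr10:60778181-60778330, plus strand), and HMGN3, a nucleosome-binding protein (chr6:79234683-79234832, minus strand).
CNOT9: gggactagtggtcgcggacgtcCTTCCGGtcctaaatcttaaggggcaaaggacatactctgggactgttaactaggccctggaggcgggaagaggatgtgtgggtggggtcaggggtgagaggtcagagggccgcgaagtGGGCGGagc
MORF4L1: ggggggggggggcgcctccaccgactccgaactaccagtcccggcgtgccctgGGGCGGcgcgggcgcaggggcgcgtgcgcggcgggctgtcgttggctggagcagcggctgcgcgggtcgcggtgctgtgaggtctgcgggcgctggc
CDK1: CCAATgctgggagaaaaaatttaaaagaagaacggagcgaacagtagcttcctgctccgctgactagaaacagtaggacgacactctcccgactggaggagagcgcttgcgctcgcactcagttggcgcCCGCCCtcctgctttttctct
HMGN3: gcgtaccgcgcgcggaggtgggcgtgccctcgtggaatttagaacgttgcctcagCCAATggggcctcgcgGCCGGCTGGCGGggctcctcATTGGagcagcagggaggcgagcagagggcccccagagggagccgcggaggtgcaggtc
The 4 kept stretches hold 18 to 20 CpGs each and the 4 lost ones 8 (CNOT9), 10 (CDK1), 15 (HMGN3) and 22 (MORF4L1), a spread that 8 chosen genes cannot extend to the groups. A match to the CTCF core stands in 1 of the kept (FAF2) and in 1 of the lost (HMGN3) stretches. The 3-day strength ran from 213.3 (HNRNPH1) to 659.6 (PHF12) for the kept ones. For the lost ones it ran from 15.8 (HMGN3) to 44.8 (CNOT9), so the 8 stretches differ in strength as well.

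Of the 11028 peaks at 3 days, 4426 were found at 6 days, which is 40.1% (39.2 to 41.1). In the other direction 4432 of 5481 peaks at 6 days, or 80.9% (79.8 to 81.9), met a 3-day peak. The 6-day list was thus mostly a subset of the 3-day list, and 1049 of its peaks were gained. With only peaks of a global IDR of at most 0.05 in both lists, 16.3% of the 3-day peaks were kept.

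The kept peaks were the stronger ones. Median strength was 12.2 for kept and 8.03 for lost 3-day peaks, and 63.1% of the kept against 26.9% of the lost peaks had an IDR of at most 0.05. An untreated SON peak lay at 96.0% of the kept and at 88.6% of the lost peaks, and an HMGB2 peak at 29.6% and 19.6%. These shares were not matched for strength. When the 3-day peaks were put in 5 strength tiers of equal size, the kept share rose with each tier, from 18.2% in the weakest through 23.4%, 33.9% and 46.4% to 78.7% in the strongest. The strongest lost peak, at a gene end of EIF3E, had a strength of 52.1, while the strongest kept peak, at PHF12, had 659.6.

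Over all peaks the kept share varied little with place in the genome. A peak was put at a gene end when it lay within 1 kb of either end of a protein-coding gene, in a gene interior when it met a gene elsewhere, and between genes otherwise. The kept share was 39.4% (1832 of 4652) at gene ends, 40.2% (1397 of 3476) in interiors and 41.3% (1197 of 2900) between genes. Gene-end peaks were however stronger at 3 days, with a median of 11.4 against 8.10 in interiors and 8.24 between genes.

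At like strength, gene-end peaks were found at 6 days less often than the others. In the weakest tier 7.78% of gene-end peaks (5.68 to 10.3) were kept, against 21.9% in interiors and 21.5% between genes. In tier 3 the shares were 16.8%, 43.0% and 42.7%, and in tier 4 they were 29.6% (26.9 to 32.5), 59.5% and 64.2%. In the strongest tier they came together, at 77.5%, 83.1% and 81.6%. That tier ran from a strength of 14.8 to 659.6, so strength is least closely matched within it. Interiors and the space between genes had overlapping intervals in every tier, so the contrast lay between gene ends and both other places. Weighted to the strength of the gene-end peaks, the other peaks were kept at 56.6%, a difference of −17.2 points.

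**Figure D1:**
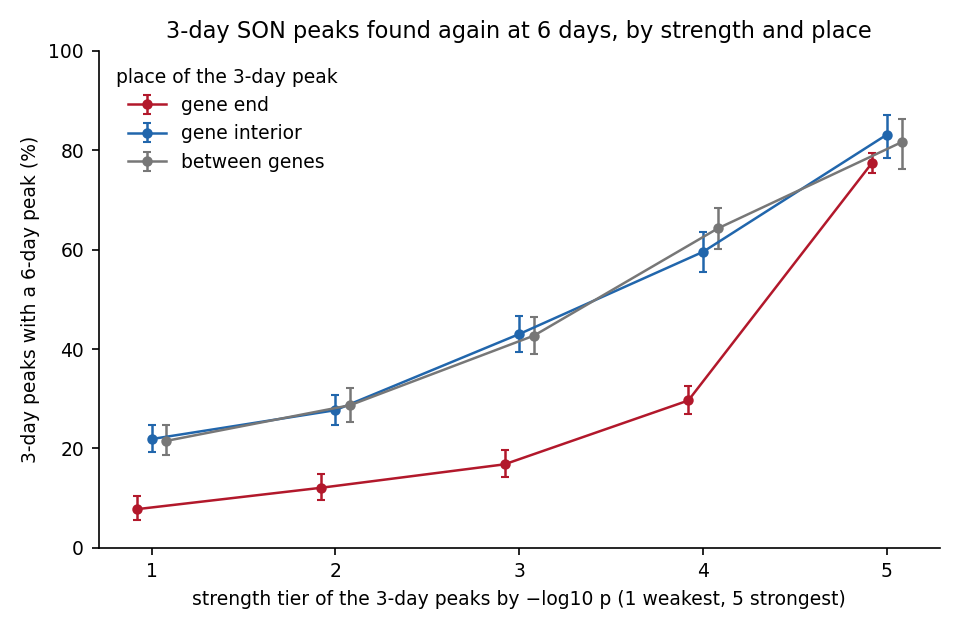
Share of 3-day SON peaks (y axis, percent) that met a 6-day peak, in 5 tiers of equal size by 3-day −log10 p (x axis, 1 weakest), for peaks at a gene end, in a gene interior and between genes. Points are shares and bars are 95% exact intervals over peaks. The gene-end line lies below both others in tiers 1 to 4 (29.6% against 59.5% and 64.2% in tier 4) and comes near them in tier 5.

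The lower share at gene ends held for transcription starts. Peaks that covered or lay within 1 kb of a start listed in RefSeq were kept at 7.01%, 10.0%, 15.1%, 29.2% and 77.0% from tier 1 to tier 5. In tier 5 their median strength was 24.1. It was 18.1 for peaks away from listed starts, transcript ends and the ends of genes with no listed start. In tier 4 these medians were 12.1 and 11.7. Weighting over tiers does not remove the difference within tier 5. Peaks at the far end of a transcript were few (127), and 46.5% (37.6 to 55.5) of them were kept. The difference at like strength was −18.7 points among 3-day peaks whose replicate values were equal and −18.8 points without chromosome 19. It shrank to −10.6 points when peaks were grouped by width in place of strength, and to −1.98 points (10.96% against 12.94%) when only 6-day peaks with an IDR of at most 0.05 counted.

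Replicates moved with place in the 3-day list. At gene ends the 3-day median was 11.5 in replicate 1 and 17.5 in replicate 2, replicate 2 was the higher in 73.5% of peaks, and the median log2 ratio of replicate 2 to replicate 1 was 0.50. In interiors and between genes that median ratio was 0, as it was at both places at 6 days, where the gene-end ratio was 0.10. The gene-end difference at like strength was −16.3 points with strength taken from replicate 1 alone and −16.5 points from replicate 2 alone, beside the −18.7 points among peaks with equal replicate values. The same reading from untreated cells to 3 days went the other way, with gene-end peaks kept more often (64.6% against 53.5% at like strength), and from untreated cells to 6 days the difference was −5.28 points. These readings share lists, so they are not independent of each other.

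Within each list the strongest peaks lay mostly at gene ends, and less so as weaker peaks were added. At 3 days 86.2% of the strongest 500 peaks lay at a gene end, 85.7% of the strongest 1000 and 76.8% of the strongest 2000. At 6 days the shares were 72.8%, 59.1% and 47.8%. The lists differ in length, so the same number of peaks is a larger part of the 6-day list, and no change between the times is read from these ranks. Among the shared peaks, the median strength at gene ends was 21.0 at 3 days and 9.70 at 6 days, while in interiors it was 9.88 and 8.71. Strength is not on a common scale in the 2 lists, so gene ends can be called the stronger place within each list, and the widths of these gaps are not compared. Across the 4426 shared peaks the Spearman rho between the times was 0.479, with 0.640 at gene ends, 0.377 in interiors and 0.396 between genes, as a description over peaks of the same 2 lists.

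**Figure D2:**
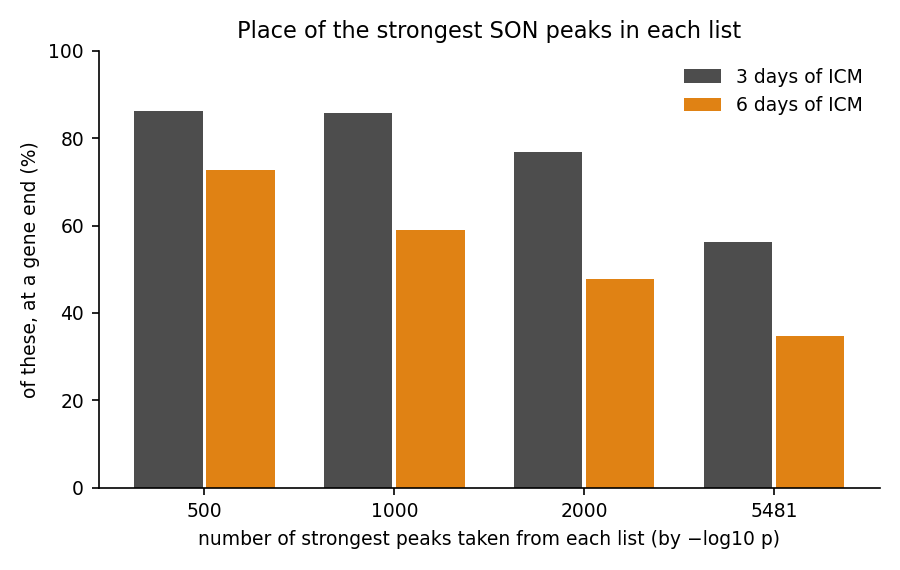
Share of the strongest peaks (y axis, percent) that lay within 1 kb of a protein-coding gene end, for the strongest 500, 1000, 2000 and 5481 peaks of the 3-day and of the 6-day list. Each bar is 1 list, with no replicate error. Within each list the bars fall as weaker peaks are added (from 86.2% to 56.2% at 3 days and from 72.8% to 34.6% at 6 days). The lists differ in length, so bars of the same number are not like parts of them.

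The 1049 gained peaks were weak and far from genes' ends. Their median strength was 7.22 and their highest 13.6, and 3 of them had an IDR of at most 0.05. Only 65 (6.20%) lay at a gene end, 530 in interiors and 454 between genes. With chromosome 8 left out, the median distance to a listed start was 49.2 kb, against 12.9 kb for the 6-day peaks that met a 3-day peak. An untreated SON peak lay at 618 of them (58.9%), against 96.0% of the 6-day peaks that met a 3-day peak. A part of the gained peaks thus stood in the untreated list and not at 3 days. By place, 96.6% of 6-day gene-end peaks met a 3-day peak, 72.6% of those in interiors and 72.5% of those between genes.

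Genes were then scored by the strongest peak in the gene body and 5 kb on either side. A 3-day peak was found for 8187 of 19974 protein-coding genes (41.0%) and a 6-day peak for 4301 (21.5%). Of the 3-day genes 4073 kept a peak at 6 days, which is 49.7% (48.7 to 50.8) and the background for the gene classes that follow. A peak was gained by 228 of the 11787 genes that had none at 3 days (1.93%). Most kept genes kept the same site: in 3897 of the 4073 a 3-day peak itself was overlapped. With an IDR of at most 0.05 in both lists 19.9% of genes kept a peak.

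Kept genes had stronger and more numerous peaks. The kept share over 5 tiers of the gene's 3-day strength was 18.01%, 32.9%, 43.8%, 62.8% and 91.3%. It was 42.6% for genes with 1 peak at 3 days, 68.8% with 2, 82.8% with 3 or 4, and 94.4% with 5 or more. Genes longer than 100 kb kept a peak in 56.5% of cases, but those of them with 1 peak in 40.7%. Genes whose strongest 3-day peak lay at a gene end were kept less often in tiers 1 to 4, for example with 33.8% against 67.8% in the third. In the strongest tier the shares were 91.5% and 89.1%, with overlapping intervals. An HMGB2 peak lay in 52.2% of kept and 34.9% of lost genes, a gap that was not matched for strength, number of peaks or gene length.

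Among the genes that kept a peak, the highest places in both lists were held by PHF12 and its neighbour SEZ6, which share 1 peak (chr17:28951328-28952178). Its replicate values were 659.6 and 1344 at 3 days and 228.7 and 361.7 at 6 days, the first place in both. FAF2 had 464.3 in both replicates at 3 days and 372.9 and 189.1 at 6 days. The transcription factor gene DEAF1, with TMEM80, had 396.9 in both replicates at 3 days and 340.1 and 187.3 at 6 days. U2AF2, with CCDC106, had 326.4 in both replicates at 3 days and 296.6 and 152.2 at 6 days. All of these lie at gene ends. The next entries were ERCC4, the nuclease XPF of excision repair, CDC27, a subunit of the anaphase-promoting complex, with MYL4, RPL28, a protein of the large ribosomal subunit, with TMEM238, and CHKB, a choline kinase, with CPT1B. Their 3-day strengths ran from 246.1 (RPL28) to 337.5 (CDC27), and all 8 entries stood above the 99.6th percentile of genes in both lists.

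The genes that lost a peak reached less high. EIF3E, a subunit of initiation factor 3, had replicate values of 52.1 and 96.6 at 3 days and no 6-day peak, and stood at the 95.2nd percentile. CNOT9 had 44.8 and 102.4 (chr2:218568055-218568845). MORF4L1 had 44.0 and 91.6 (chr15:78872288-78873349). In each of these replicate 2 was the higher, as in most 3-day gene-end peaks. AURKB, the Aurora B kinase of chromosome segregation, had 42.3 and 126.7 at a peak between genes (chr17:8199888-8200663), 9562 bp from its own start. The remaining entries were ZNF541, TOR1AIP1 and TOR1AIP2, cofactors of the torsin ATPases, with the short gene LOC139427322, CYB5R4 with RIPPLY2, and NAT9 with SLC38A12, with 3-day strengths from 37.4 (NAT9) to 41.1 (ZNF541). Every one of these 8 peaks overlapped an untreated SON peak.

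Genes that gained a peak had low values and were mostly long. N4BP2 led with replicate values of 13.6 and 18.7 at 6 days, in its interior 123436 bp from the start. BPTF, the large subunit of the NURF remodeller, had 13.6 and 14.1. APBA1, MLIP, C17orf58, GJC1 and DIAPH3 followed, with strengths from 10.97 (DIAPH3) to 12.1 (APBA1). Of the genes named here all but GJC1 had an interior peak, and those of BPTF, MLIP and GJC1 overlapped an untreated peak. Gained genes had a median length of 63.7 kb, against 35.5 kb for kept and 31.4 kb for lost genes.

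Some kept genes stood at very different places in the lists, and for most of those that stood higher at 6 days the 3-day replicates were far apart. ZNF12 had 3-day values of 51.2 and 5.51 and 6-day values of 21.6 and 30.5. NR1D1, the clock repressor REV-ERB alpha, had 5.46 and 228.5, then 15.1 and 20.2. NCAPD3, a condensin II subunit, which shares its peak with VPS26B, had 7.41 and 208.0, then 15.7 and 19.7. SIPA1, a Rap GTPase activator, had 5.18 and 77.9, then 13.8 and 15.9. In these 4 entries the lower replicate sets the low 3-day place. RNF14, a ubiquitin ligase, had 8.18 and 22.5, then 19.5 and 19.8 at another site.

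The opposite order was found for TASOR2, with 41.0 and 139.0 at 3 days and 5.89 and 11.1 at 6 days. DHX9, the RNA helicase A, had 34.9 and 67.1, then 5.37 and 7.02. CHTOP, an mRNA export factor that shares its peak with S100A1 and S100A13, had 40.01 and 98.7, then 6.14 and 17.3. MLST8, a subunit of mTOR complexes, had 42.8 and 119.2, then 6.33 and 16.4. DVL2, a Wnt pathway protein, had 68.9 and 225.4, then 6.997 in both replicates at another site, next to its start. All of these peaks lie at gene ends. At 6 days replicate 1 was low in each, while replicate 2 of CHTOP and MLST8 was above the 6-day median of that replicate at gene ends, 11.4, so that there the lower replicate sets the low 6-day place.

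Gene classes were described from 32 lists, with the share of 3-day members that kept a peak beside the 49.7% over all genes. The lowest shares over lists with at least 5 such members were those of high mobility group genes (0 of 8), the kinases and phosphatases of SR proteins (2 of 8) and cell cycle genes (7 of 28). The highest were those of nuclear lamina genes (7 of 8), fibroblast matrix genes (16 of 20) and RNA polymerase II subunit genes (5 of 7). With an IDR of at most 0.05, 11 of the 29 lists that still had a 3-day member moved to the other side of the share over all genes. Most lists are small, and neighbours can share a peak: 24.9% of the 3-day peaks in gene windows served more than 1 gene.

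**Figure D3:**
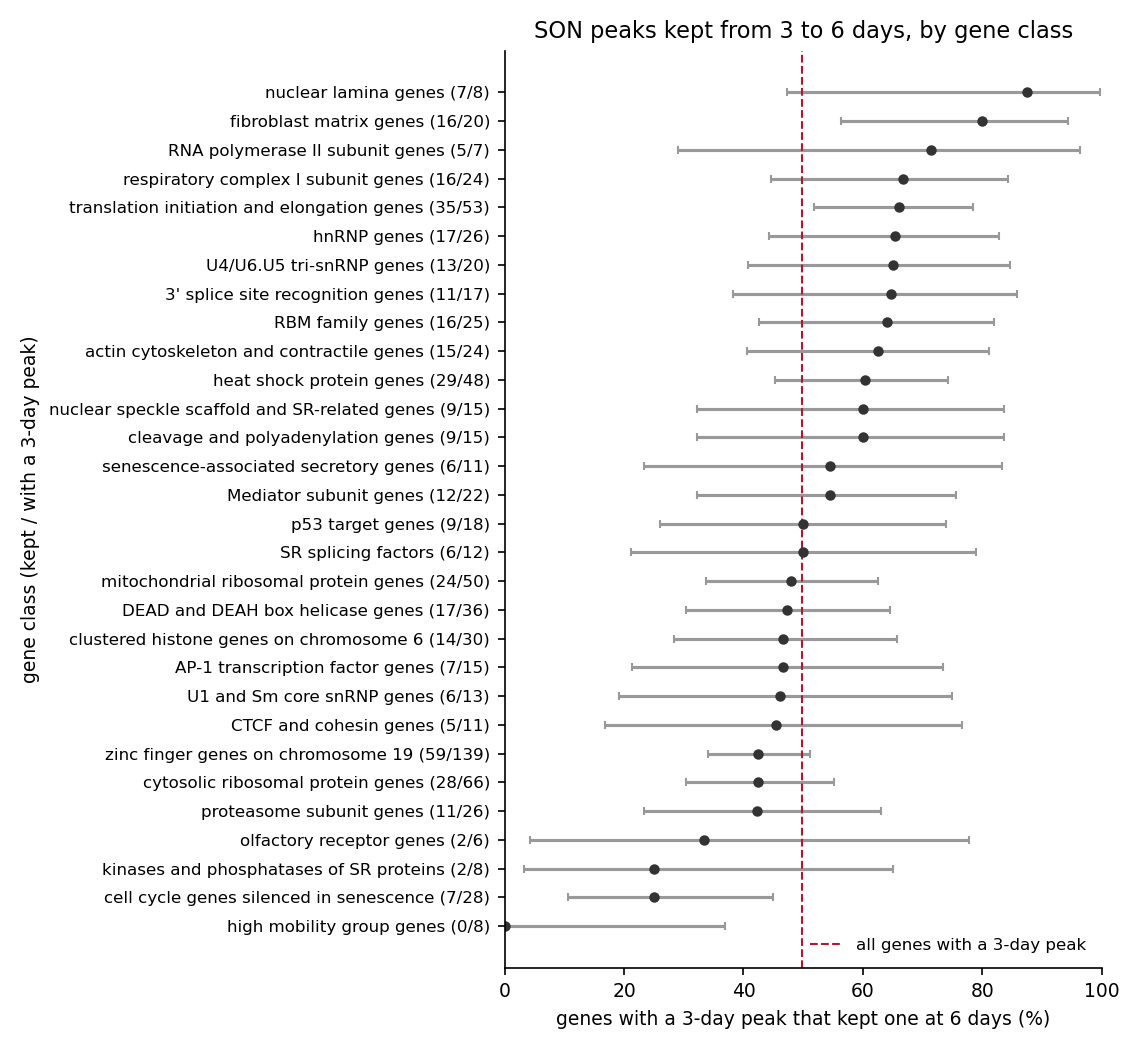
Share of genes with a 3-day SON peak that kept one at 6 days (x axis, percent), for each gene class with at least 5 such genes (y axis, with kept over 3-day members). Points are shares, bars are 95% exact intervals over genes, and the dashed line is the share over all genes, 49.7%. High mobility group (0 of 8) and cell cycle genes (7 of 28) lie left of the line and fibroblast matrix genes (16 of 20) right of it.

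High mobility group genes encode small proteins that bend DNA or bind nucleosomes. A 3-day peak was found for 8 of the 11 members and a 6-day peak for 0, with an upper limit of 36.9% for the kept share. HMGB2, whose protein is the other target of the series, had 19.8 in both replicates at 3 days and no peak at 6 days. HMGN3 had 15.8 in both replicates, HMGB1 had 10.6 and 17.1, and HMGN1 had 10.4 and 15.2. HMGB2 stood at the 77.4th percentile and the median member at the 42.6th, so most of the list was of middling strength at 3 days. Of the 12 peaks of the list at 3 days, 6 at gene ends and 6 elsewhere, 0 were overlapped at 6 days. With lists of equal length the count was 0 of 5, beside 63.4% over all genes. With an IDR of at most 0.05 it was 0 of 4, beside 19.9% over all genes, too few genes to tell from that share.

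The cell cycle list holds replication, mitosis and cyclin genes that are shut down in senescent cells. Of its 40 members 28 had a 3-day peak and 7 kept one, or 25% (10.7 to 44.9), and FOXM1 gained one. The median 3-day percentile was 51.0, near the middle of all genes. Among members in the upper 2 strength tiers 5 of 11 were kept, against 77.0% of all such genes, and in the lower 3 tiers 2 of 17, against 31.6%. CDC25C, a phosphatase that activates CDK1, kept a peak with 22.04 and 48.7 at 3 days and 12.4 and 15.6 at 6 days. AURKA, the Aurora A kinase of the spindle poles, had 34.7 and 120.0, and its strongest 6-day peak had 9.66 in both replicates at an interior site. The same 3-day values stand for CSTF1, at a peak (chr20:56392101-56392819) that a 6-day peak with 9.26 and 13.8 overlapped. That 3-day site was therefore kept. AURKB, described above, and CDK1, with 19.4 and 20.2, were the strongest members without a 6-day peak. The kept count was 6 of 19 with lists of equal length and 4 of 26 within gene bodies, each below the share over all genes in the same setting (63.4% and 45.9%). With an IDR of at most 0.05 it was 0 of 15, with an upper limit of 21.8%. That limit holds the 19.9% over all genes, so this setting cannot tell the list from them.

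Other lists linked to senescence had shares nearer to that over all genes in the full lists, and the difference from the cell cycle list was not tested. Under the same IDR limit the p53 targets had 0 of 8 kept, as the cell cycle genes had 0 of 15. Of the p53 targets 9 of 18 kept a peak, with PLK3, a stress kinase, at 8.36 and 8.48, then 10.7 and 14.8, and XPC, a DNA damage sensor, at 18.6 in both replicates, then 13.8 and 10.6. TIGAR, a regulator of glycolysis, with 20.7 and 41.3, and CDKN1A, the cell cycle inhibitor p21, with 10.6 and 21.2, had no 6-day peak. Secretory genes of senescence had a 3-day peak in only 11 of 45 cases, and 6 of the 11 were kept. PLAU, the urokinase, had 9.05 and 12.3, then 15.2 and 14.4, and IGFBP2 had 7.26 and 8.96, then 11.2 in both replicates. INHBA, with 9.19 and 9.46, and PLAUR, with 11.6 and 8.58, had no 6-day peak. SERPINE2, CXCL8 and CXCL1 were the 3 members that gained one, with strengths of 9.34, 5.76 and 5.76.

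Matrix genes of fibroblasts, which stand here for the labelled cell type, had a 3-day peak in 20 of 42 cases, and 16 of the 20 kept it, or 80% (56.3 to 94.3). LAMA4, a laminin chain, gained a peak. The list was weak at 3 days, with a median percentile of 34.3, and 14 of its 17 members in the lower 3 strength tiers kept a peak, against 31.6% of all such genes. Only 30% of its members had their strongest 3-day peak at a gene end, against 72.5% of all genes, and 32 of its 41 peaks lay elsewhere, of which 19 were overlapped. The 20 genes thus held 41 peaks, and genes with more peaks were kept more often. By peak the gap was smaller, with 22 of the 41 overlapped (53.7%) beside 39.8% of the 3-day peaks in all gene windows. COL14A1, a fibril-associated collagen, had 11.6 in both replicates at 3 days and 21.1 and 20.9 at 6 days. COL4A2, a chain of basement membrane collagen, had 12.8 and 17.0, then 15.8 in both replicates. COL12A1, with 15.8 and 17.5, and THBS2, a thrombospondin, with 12.5 and 41.6, had no 6-day peak. With an IDR of at most 0.05 the count was 2 of 9, near the 19.9% over all genes.

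Actin and contractile genes kept a peak in 15 of 24 cases. ACTN4, an actin crosslinker, had 146 and 442, then 24.7 and 62.4, and FLNC, a muscle filamin, had 34.6 and 80.8, then 20.0 and 21.8. ARPC5 of the ARP2/3 complex, with 18.2 and 54.2, and profilin PFN1, with 14.8 and 38.1, had no 6-day peak. Of genes that belong to other tissues, 6 of 392 olfactory receptor genes and 2 of 149 keratin genes had a 3-day peak, and 2 and 0 of these kept one. The 3-day list thus holds few such genes, against 41.0% of all genes. Their median lengths were 2.94 kb (olfactory receptor) and 1.15 kb (keratin), against 24.2 kb over all genes. Their windows are therefore smaller, and the shares were not compared at like length.

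**Figure D4:**
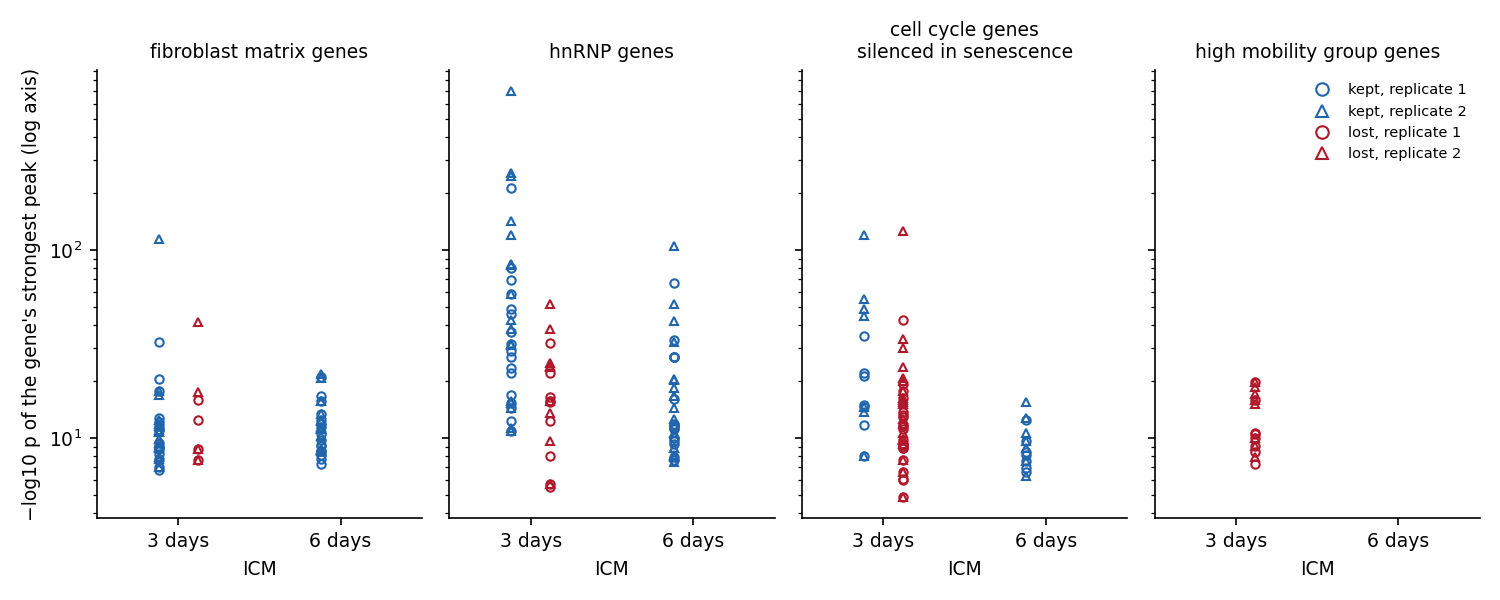
The −log10 p (y axis, log scale) of the strongest SON peak of each member at 3 and 6 days of ICM, for fibroblast matrix, hnRNP, cell cycle and high mobility group genes. Circles are replicate 1 and triangles replicate 2, blue members kept a peak and red members had none at 6 days. Matrix genes lie low at 3 days and mostly remain present, hnRNP genes are high and mostly present, and all high mobility group members are red.

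Splicing genes are the class closest to SON's known role. Over the 7 splicing lists 111 of 126 genes had a 3-day peak and 64 of the 111, or 57.7% (47.9 to 67.0), kept one, with a median 3-day percentile of 68.4. Among the stronger members 51 of 67 were kept and among the weaker 13 of 44, shares close to those over all genes (77.0% and 31.6%). The peaks of these genes were gene-end peaks in 115 of 132 cases, so the class differs from the matrix genes in place as well as strength.

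Within the splicing lists the shares ran from 17 of 26 for hnRNP genes down to 2 of 8 for the kinases and phosphatases of SR proteins. HNRNPH1 had 213.3 and 704.3 at 3 days and 66.7 and 105.2 at 6 days, and HNRNPUL1 had 48.4 and 58.0, then 33.1 and 32.6. PTBP3, with 32.0 and 51.6, and SYNCRIP, with 22.3 and 25.1, had no 6-day peak. Genes of 3′ splice site recognition kept a peak in 11 of 17 cases, with U2AF2 first and then RBM17, which had 54.9 and 209.5, then 24.6 and 27.3. PUF60, with 27.2 in both replicates, and SF3A3, with 12.7 and 16.7, were the strongest of these with none at 6 days. The tri-snRNP, the particle that brings the catalytic snRNAs, had 13 of 20 kept, with SART1 at 21.0 and 87.9, then 11.6 and 24.5. Limited to an IDR of at most 0.05 it had 0 of 16 kept, below the 19.9% over all genes, where the full lists put it above. The upper limit of that count, 20.6%, holds the 19.9%.

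SR proteins kept a peak in 6 of 12 genes and the U1 and Sm core snRNP genes in 6 of 13. SRSF10 had 108 and 413, then 25.2 and 38.0, and SRSF2 had 9.72 and 71.3, then 15.1 and 17.8. SRSF3, with 28.4 and 42.2, and SRSF11, with 13.6 and 30.2, had no 6-day peak. SNRNP70, the U1 70K protein, had 137 and 479, then 53.5 and 72.2. Of the scaffold and SR-related genes of the speckle 9 of 15 kept a peak. SRRM1 was the strongest of them, with 139 and 314, then 32.5 and 39.5. The gene of SON itself had 19.9 and 35.4 at 3 days, at a gene end, and no 6-day peak, as did the export factor gene ALYREF with 19.9 and 61.3.

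The kinases and phosphatases that switch SR proteins on and off had a 3-day peak in 8 of 12 genes, all at gene ends. CLK2 had 36.1 and 50.7, then 14.8 and 18.2, and PPP1CB, a catalytic subunit of protein phosphatase 1, had 59.6 and 218, then 14.4 and 28.8. DYRK1A, with 14.1 in both replicates, and CLK3, with 10.1 and 20.1, were the strongest of the 6 with none at 6 days. The kept members were both in the upper 2 strength tiers, as was DYRK1A. Of the 5 weaker members 0 were kept, beside 31.6% of all genes in the lower 3 tiers. With an IDR of at most 0.05 the count was 2 of 3, above the 19.9% over all genes, so the low place of the list does not hold in that setting.

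Genes of RNA processing and transcription spanned the background. RBM family genes kept a peak in 16 of 25 cases, led at 6 days by RBM39, a U2AF homologue, with 37.1 in both replicates, then 33.0 and 26.7. DEAD and DEAH box helicases kept 17 of 36, cleavage and polyadenylation genes 9 of 15 and Mediator genes 12 of 22. RNA polymerase II subunit genes kept 5 of 7, with POLR2H at 31.0 and 53.5, then 20.3 and 17.4, while POLR2E had 21.0 and 36.8 and none at 6 days. AP-1 genes split by strength, as genes did in general, with 7 of 7 in the upper 2 tiers and 0 of 8 in the lower 3. Over all genes these shares were 77.0% and 31.6%. FOS had 44.0 in both replicates, then 26.5 and 25.8, and FOSB, with 13.0 and 40.4, had no 6-day peak. Zinc finger genes of chromosome 19 kept 59 of 139 and HOX cluster genes 0 of 3, which share a single peak.

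Among chromatin genes, lamina and envelope genes kept a peak in 7 of 8 cases and only SYNE2, with 8.17 in both replicates, lost it. The interval, 47.3% to 99.7%, holds the share over all genes. By peak, 6 of the 13 of this list were overlapped (46.2%), beside 39.8% of the 3-day peaks in all gene windows. LMNB2 had 36.9 and 110.0, then 21.4 and 22.6, and EMD, the gene of emerin, had 38.3 and 52.8, then 20.4 and 17.5, at a peak shared with the filamin gene FLNA. CTCF and cohesin genes kept 5 of 11. RAD21, the cohesin kleisin, had 97.4 and 397, then 19.9 and 51.2, and STAG1 had 64.1 and 169, then 15.8 and 17.2. WAPL, which releases cohesin, with 17.2 and 34.5, and ESCO2, with 16.0 in both replicates, had none at 6 days. CTCF, singled out after its values were seen because the series names it, had 20.8 and 61.9, then 14.1 and 10.7. Clustered histone genes of chromosome 6 kept 14 of 30, on 17 peaks of which 7 were overlapped.

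Genes of protein synthesis were described in 3 lists, and the differences between them were not tested. Translation initiation and elongation genes kept a peak in 35 of 53 cases, or 66.0% (51.7 to 78.5), and were strong at 3 days, with a median percentile of 73.4. EIF4G3, an eIF4G scaffold, had 192 in both replicates, then 142 and 74.96, while EIF3E and EIF3K (36.2 and 104) had none at 6 days. Under the IDR limit of 0.05 the list had 10 of 40 kept and the cytosolic ribosomal protein genes 11 of 50, both near the 19.9% over all genes. The list also holds the eIF2 alpha kinases and the eIF4E-binding proteins, whose symbols match its pattern. Cytosolic ribosomal protein genes kept 28 of 66 (30.3% to 55.2%, which holds the share over all genes), with RPL28 first and RPS12 at 76.02 and 177, then 49.4 and 37.3, and with RPS13, at 20.8 and 57.6, the strongest of those lost. Mitochondrial ribosomal protein genes kept 24 of 50, and subunit genes of respiratory complex I 16 of 24, led by NDUFA3 with 153 and 609.7, then 47.6 and 84.6.

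Protein turnover genes followed their strength, as genes did in general. Heat shock genes kept 29 of 48, with 22 of 23 in the upper 2 tiers and 7 of 25 in the lower 3, beside 77.0% and 31.6% over all genes. DNAJA3, a mitochondrial cochaperone, had 85.4 and 242, then 32.4 and 49.2, and DNAJC25, with 17.8 and 58.7, had none at 6 days. Proteasome genes kept 11 of 26, with PSMC4 at 36.0 and 80.7, then 21.1 and 20.2, and PSMD2, at 15.3 and 16.2, the strongest of those lost.

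Promoter sequence differed little between kept and lost sites. Of 22035 RefSeq promoter windows, from 250 bases before to 50 after a start, 5279 met a 3-day peak, and for 2150 of them (40.7%) that peak was kept. The median GC content was 64.0% in kept and 65.3% in lost windows, against 61.0% in windows with no peak at either time, and both held a median of 27 CpGs, against 16. Within each of 5 strength tiers the kept windows had the lower median GC content and the lower median CpG count. In the third these were 62.3% against 65.0% and 24 against 27 CpGs. As in the stretches of PHF12, U2AF2, CNOT9 and MORF4L1 above, most windows of both groups held a GC box (73.0% kept and 74.8% lost, against 56.3% of all windows).

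Of 11 motifs searched in these windows, the palindromic NRF1 site had the widest raw gap in kept share, and strength moved with it. Windows with that site, 1.48% of all, were kept at 60.6% (152 of 251) against 39.7% without it, but their median strength was 20.0 against 11.7, and windows without the site were kept at 61.4% once weighted to the same strength. With a CCAAT box, found in 34.7% of all windows, 44.6% were kept, against 39.1% without it at like strength. The CTCF core, found in 12.3% of all windows, gave 39.9% with it and 41.3% without it at like strength. The kept share was 40.1% with a GC box and 42.8% without it at like strength, and 40.6% with an ETS site, found in 12.8% of all windows, against 39.1%. The TATA box, spelled TATAAA and found in 9.49% of all windows, gave 39.6% against 35.5% in the same reading. The AP-1 site, spelled TGANTCA and found in 6.17%, gave 38.6% (81 of 210) against 33.9%, and the ZBTB33 palindrome, found in 0.554%, gave 41.4% (36 of 87) against 36.4%. For the cAMP response element TGACGTCA (2.25% of all windows) the shares were 40.8% and 39.4%, for the E-box CACGTG (8.31%) 43.0% and 41.9%, and for the cell cycle homology region TTTGAA (12.5%) 39.7% and 38.1%. These gaps were not tested. Motifs were matched as letters on both strands, may overlap one another, and a match is not a bound site.

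The share ranged over chromosomes from 23.4% to 55.9% at gene ends and from 34.6% to 47.7% elsewhere, apart from X with 19.3% elsewhere. Over all peaks it lay between 36.6% and 42.6% on 19 of the 23 chromosomes. It was 50.8% (47.0 to 54.6) on chromosome 19, the most gene-dense, with 55.9% at gene ends and 40.3% elsewhere, and 49.6% on chromosome 21. Chromosome 15 had 33.5%, with 23.4% at gene ends and 40.1% elsewhere. The X chromosome had the lowest share, 25.5% of 165 peaks. The median 3-day strength was 12.2 on chromosome 19 and 10.3 on X, and 8.53 on chromosome 15. Among 1-Mb stretches with at least 12 peaks at 3 days, of which there were 155, each kept at least 1.

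**Figure D5:**
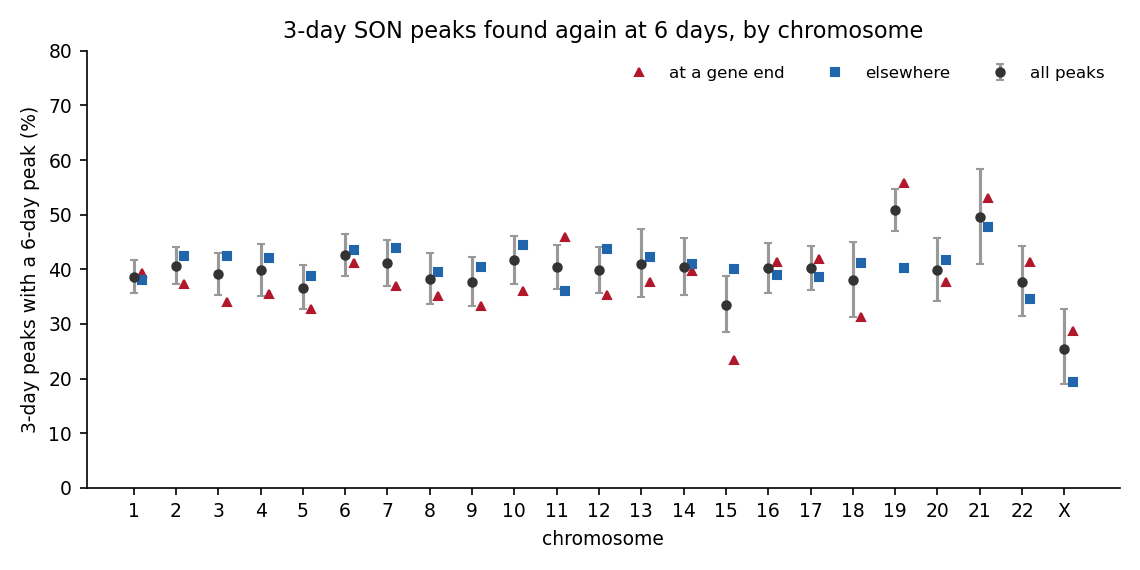
Share of 3-day SON peaks that met a 6-day peak (y axis, percent) on each chromosome (x axis). Circles are all peaks with 95% exact intervals over peaks, triangles are peaks at a gene end and squares are peaks elsewhere. Chromosome 19 lies high through its gene-end peaks (55.9%), chromosome 15 lies low through them (23.4%), and X is lowest over all its peaks (25.5%).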

How the data were processed

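The SON lists as deposited have the IDR tool's columns for 2 replicates. How the replicates were made is not given in the sources used here. The −log10 p of each peak was deposited by the authors as the lower of the replicate values, which the lists also give, and the global IDR was deposited as its −log10, with a scaled IDR score by the authors in the score column. For HMGB2 the authors deposited −log10 p and a score per peak, of which only the positions were used here. The submitters' processing notes name the build hg38, bcl2fastq 2.17, Bowtie2, deepTools and MACS2, with no parameters, and read depth is unknown. No lines overlapped within a list, and 130 lines at 3 days and 102 at 6 days off chromosomes 1 to 22 and X were set aside.

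Genes and promoter windows came from RefSeq tables of GRCh38.p14, with 19974 protein-coding genes, of which 15813 had a listed start. Percentiles were taken over the genes with a peak in the same list, except in the comparison of gaps. Kept shares at like strength were weighted over 5 tiers of 3-day strength. Named genes were the 8 kept with the highest lower percentile, the 8 lost and the 8 gained with the highest percentile, the 5 kept genes with the widest percentile gap each way (percentiles over kept genes alone), and at most 4 per gene list (the strongest kept and lost). Genes sharing a peak count once. One gene that the rule picks is not reported here. The members and gene lists were chosen with earlier results of these data known. With 1 list per time no test was run. Overlap and weighting were tested on simulated data. Computations ran in Python 3.11.15 with pandas 2.3.3, numpy 2.4.6, matplotlib 3.10.9 and scipy 1.17.1.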

Additional observations from a re-analysis of the deposited data

How the results depend on the processing

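With 1 list per time, no replicate list could be left out. No paired analysis was possible because the result comes from no test. The shares of shared peaks, 40.1% of the 3-day and 80.9% of the 6-day peaks, moved by less than their intervals with an overlap of at least 50% of the shorter peak and with peaks within 1 kb merged. Keeping only peaks whose global IDR did not exceed 0.05 gave 16.3% and 90.6%. They were 37.3% and 75.2% in the stronger 50% of each list, and 57.9% and 58.1% with the 3-day list cut to the length of the 6-day list (57.7% and 57.9% cut by replicate 1, 53.9% and 54.1% by replicate 2). The shares of genes, 49.7% kept and 94.7% of 6-day genes with a 3-day peak, were 45.9% and 93.5% in gene bodies alone, 40.7% and 98.4% within 1 kb of the start, 41.998% and 89.4% in the stronger 50%, 63.4% and 80.1% at equal length, and 46.7% and 90.8% with each peak given to its nearest gene. Under the IDR limit they were 19.9% and 95.3%. Kept shares stayed on their side of the share over all genes in 27 of 31 gene lists at equal length, in 26 of 32 in gene bodies and in 18 of 29 under the IDR limit. The lower share at gene ends at like strength was found in all 10 alternatives, which were chosen after seeing the data, and ran from −18.8 to −1.98 points. The causes were not tested, and the settings with fewer peaks only describe the overlap among those peaks. Depth is unknown, and a peak missing at 6 days is not shown to be unbound.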

Other observations

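Long noncoding RNA genes clear of protein-coding genes were examined as a further group. Of 9091 such genes 769 had a 3-day peak, and 344 of these (44.7%, 41.2 to 48.3) kept one, beside 49.7% of protein-coding genes, while 427 had a peak at 6 days. LINC03014 and LINC03015 shared the kept peak that was strongest at 6 days, with a strength of 493.6 at 3 days and 97.9 at 6 days, and LINC00390 and SMIM2-AS1 shared the next, with 135.5 and 54.9. LINC02102, with 36.2, was the strongest without a 6-day peak, and FTX, a gene of the X-inactivation centre, with 19.4, and DANCR, a host of small nucleolar RNAs, with 16.8, had none either. LINC02410 (11.8) and MIR29B2CHG (11.2), the host gene of a miR-29 cluster, gained one. These genes are among the 6 strongest of each kind with a symbol of their own, those with a LOC symbol being left out, and were chosen after their values were seen.

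Peaks outside chromosomes 1 to 22 and X were kept more often than the rest of the list. Of 130 such 3-day peaks 94 (72.3%, 63.8 to 79.8) met a 6-day peak, among them 8 of 8 on the mitochondrial genome, and 97 of 102 at 6 days met a 3-day peak. Mapping to repeated sequence was not examined.

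The nearest other kept peak lay at a median of 95.4 kb from a kept peak and 121.2 kb from a lost one. Among the 155 1-Mb stretches with at least 12 peaks at 3 days, the highest kept share was 13 of 15 at chr19:17000001-18000000, and the lowest was 1 of 13 at chr1:109000001-110000000. These stretches were picked after their values were seen.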
